A study of Mus musculus with 48 samples.

Results

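The genes described here are 34 genes of mitochondrial and peroxisomal fatty acid oxidation. They were chosen by name for their role in the pathway, with earlier results of these data known. On the array used, 32 of the 34 genes had a probeset that carries their symbol alone, among 21789 such probesets and 35556 in all. The long-chain acyl-CoA synthetase Acsl1 had no probeset of its own, and the only probeset of its relative Acsl3 also carries Utp14b, so both were left out of all counts. Livers came from 48 male mice in 6 groups of 8, and each was hybridised to an array of its own. Wfs1-deficient homozygous (KO), heterozygous (HZ) and wild type (WT) mice had received valproic acid (VPA, 300 mg/kg daily, intraperitoneally), and as many mice of each genotype had received saline (10 mL/kg). All began treatment at 4 to 6 weeks of age and were killed at 16 to 18 weeks, after 12 weeks of injections, with free access to chow, and all had undergone a glucose tolerance test (2 g/kg) on the day before death. The last injection lay 48 hours before the liver was taken. The KO allele was made by disrupting exons 7 and 8 of Wfs1 in the whole animal, so it is not restricted to hepatocytes, and the strain is not given in the sources used here. Values are log2 signals, on which a difference of 1 is a doubling, and the values of different genes are not compared since probes differ in brightness.

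Fatty acid oxidation removes carbon from fatty acids in repeated rounds of dehydrogenation, hydration, dehydrogenation and thiolytic cleavage. In the liver, long chains enter the mitochondrion through the carnitine shuttle, very long and branched chains are shortened in peroxisomes, and the acetyl-CoA made during fasting feeds ketone bodies. Many of these genes are transcribed under the nuclear receptor PPAR-alpha. VPA is a branched short-chain fatty acid used against seizures and in bipolar disorder, is itself activated to a CoA ester and oxidized, and is known for steatosis as an adverse effect. Wolframin, the product of Wfs1, is a membrane protein of the endoplasmic reticulum.

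The arrays were alike in scale, with medians between 6.91 and 7.03 and pairwise correlations of 0.971 to 0.994. The Wfs1 probeset averaged 8.34 ± 0.21 in KO VPA, 8.48 ± 0.25 in HZ VPA, 8.48 ± 0.31 in WT VPA, 8.28 ± 0.12 in KO saline, 8.31 ± 0.11 in HZ saline and 8.44 ± 0.10 in WT saline livers (SD, n = 8 each). KO was not separated from WT by it (difference -0.15, limma adjusted p = 0.320). Since it summarizes all exons and not exons 7 and 8 alone, it is no check of the genotype labels. All 9 measured hepatocyte markers averaged between 12.31 and 14.44, and of the 7 measured adipocyte markers Adipoq stayed below 5 in every group while the others averaged up to 8.48.

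Promoter sequences are shown for 3 members on which the results turn, since the pathway is known for its control by PPAR-alpha at promoters. These are Ehhadh, which passed in both main comparisons, Cd36, which had the highest VPA difference, and Cpt1a, the only member called lower with VPA over the 3 genotypes. Each window holds 250 bases before and 50 after the start of the gene (RefSeq, GRCm38.p6), written 5′ to 3′ on the strand of the gene. They lie at chr16:21787785-21788084 (minus strand), chr5:17835847-17836146 (minus strand) and chr19:3323051-3323350 (plus strand). Capitals mark AGGTCA on either strand, the core hexamer that nuclear receptors of this class bind.
Ehhadh: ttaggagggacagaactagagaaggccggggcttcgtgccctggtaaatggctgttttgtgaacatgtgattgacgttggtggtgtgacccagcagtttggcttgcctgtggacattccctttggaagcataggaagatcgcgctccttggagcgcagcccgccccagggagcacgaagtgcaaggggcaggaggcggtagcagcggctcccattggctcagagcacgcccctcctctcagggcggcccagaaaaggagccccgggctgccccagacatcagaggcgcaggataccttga
Cd36: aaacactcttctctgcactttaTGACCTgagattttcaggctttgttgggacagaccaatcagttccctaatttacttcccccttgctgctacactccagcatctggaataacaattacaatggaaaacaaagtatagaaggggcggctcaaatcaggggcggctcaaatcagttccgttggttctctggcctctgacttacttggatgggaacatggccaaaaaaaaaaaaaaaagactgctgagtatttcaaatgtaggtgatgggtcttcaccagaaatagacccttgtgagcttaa
Cpt1a: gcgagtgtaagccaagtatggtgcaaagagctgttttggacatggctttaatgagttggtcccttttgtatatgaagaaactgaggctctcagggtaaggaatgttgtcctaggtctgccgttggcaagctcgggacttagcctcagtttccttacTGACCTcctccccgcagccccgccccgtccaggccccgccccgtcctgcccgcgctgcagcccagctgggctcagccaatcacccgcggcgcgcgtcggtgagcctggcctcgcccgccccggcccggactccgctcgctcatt
The hexamer occurred once in the Cd36 window and once in the Cpt1a window, in both as its reverse complement, and not in that of Ehhadh. Windows were at hand for 28 of the 32 measured genes, and 7 genes held the hexamer (Acadm, Acadvl, Cd36, Cpt1a, Creb3l3, Echs1 and Fabp1), which was 23.3% of their 30 windows against 16.3% of 32851 windows of all genes. A direct repeat of AGGTCA with 1 base between the copies, the form that PPAR-alpha binds with its partner RXR, was searched on both strands and occurred in none of the 30 and in 0.0396% of all windows. At so low a share its absence from 30 windows cannot show that these genes lack PPAR-alpha sites. Sequence outside the windows was not searched. A looser form, AGGNCA repeated in the same way, which covers the strict one, occurred in Fabp1 only, and 0.381% of all windows held it. CACGTG, the E-box of the circadian clock, occurred in none of the members' windows and in 7.15% of all.

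All measured members were readily detected. Mean log2 signals over the 48 livers lay between 9.51 (Acaa1a, a peroxisomal thiolase) and 13.72 (Fabp1, the fatty acid binding protein of hepatocytes), with a median of 11.19. Within groups most members varied little. The pooled SD within groups had a median of 0.18 and was lowest for Acaa2, the mitochondrial thiolase (0.069), while Vnn1, a pantetheinase that releases pantothenate for CoA synthesis (0.66), Cd36 (0.60) and Ech1, a dienoyl-CoA isomerase (0.37), varied most. The 5 mitochondrial hydratase, hydroxyacyl dehydrogenase and thiolase genes had SDs of 0.069 to 0.15, and the 4 peroxisomal genes had SDs of 0.14 to 0.31. Acaa1a and Acaa1b are close paralogs, and probes may take up signal of either.

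Comparing VPA with saline over the 3 genotypes asked what the long treatment changed in the liver. Of the 32 genes 4 passed the test, with Ehhadh, Acsl5 and Cd36 higher and Cpt1a lower in VPA livers. This was 12.5% of the members, against 8.61% of all probesets (4.01% higher and 4.6% lower), so the share is of the order of the background. When each array was centred on its own median, the split over all probesets turned to 5.26% higher and 2.42% lower. The remaining 28 members did not pass. The 95% interval of the VPA difference lay within ±0.3 for 26 of the 32 genes and within ±0.5 for 31. Leaving out any of the 48 arrays ended none of the 4 calls, whereas all 4 were lost, together with those of all other probesets, when an index of clock genes was added to the fit, and Cpt1a then turned to 0.06. The index itself averaged higher with VPA than with saline in each genotype. That fit therefore cannot tell a clock difference from the effect of VPA.

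Ehhadh encodes the peroxisomal bifunctional enzyme that combines hydratase and hydroxyacyl dehydrogenase activities. In VPA livers it ran from 11.77 to 12.55 in KO (median 12.11), from 11.51 to 11.93 in HZ (median 11.72) and from 11.29 to 12.00 in WT (median 11.79). In saline livers it ran from 11.37 to 12.24 in KO (median 11.74), from 10.99 to 11.67 in HZ (median 11.41) and from 11.18 to 11.84 in WT (median 11.41). The groups overlapped in each genotype, but 22 of 24 VPA livers exceeded the saline mean within their genotype. The VPA difference was 0.33 ± 0.069 (SE), 1.26-fold, with a limma adjusted p of 0.00126. Within genotypes it was 0.40 in KO, 0.35 in HZ and 0.25 in WT, with exact permutation p of 0.0135, 0.000932 and 0.0746 for the same mice (0.0316, 0.00653 and 0.110 after adjustment over 7 comparisons of this gene).

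Acsl5 encodes a long-chain acyl-CoA synthetase that activates fatty acids at the start of oxidation or esterification. In VPA livers it ran from 11.97 to 12.43 in KO (median 12.24), from 11.78 to 12.35 in HZ (median 12.18) and from 11.79 to 12.33 in WT (median 12.16). In saline livers it ran from 11.52 to 12.24 in KO (median 12.03), from 11.64 to 12.18 in HZ (median 11.89) and from 11.60 to 12.08 in WT (median 11.97). In KO 8 of 8 VPA livers lay above the saline mean, in HZ 6 of 8 and in WT 5 of 8. The VPA difference was 0.22 ± 0.058 (SE), 1.165-fold (limma adjusted p = 0.0131). Within genotypes it was 0.24 in KO, 0.24 in HZ and 0.18 in WT, with exact permutation p of 0.0365, 0.0317 and 0.0948. After adjustment over 7 comparisons of this gene these were 0.128, 0.128 and 0.221, so no genotype alone passed. The other measured synthetase, Acsl4, which prefers arachidonic acid, differed by 0.12 and did not pass (adjusted p = 0.228).

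Cd36 encodes a scavenger receptor that takes up long-chain fatty acids and is expressed by macrophages and endothelium as well as by hepatocytes. In VPA livers it ran from 8.93 to 11.16 in KO (median 10.74), from 9.85 to 10.79 in HZ (median 10.14) and from 9.36 to 10.85 in WT (median 10.36). In saline livers it ran from 8.69 to 10.01 in KO (median 9.62), from 7.97 to 10.91 in HZ (median 10.11) and from 9.21 to 10.29 in WT (median 9.75). In KO 7 of 8 VPA livers exceeded every saline liver, and the eighth was near the bottom of the saline range. In HZ the VPA livers lay inside the saline range. The VPA difference over genotypes was 0.62 ± 0.17 (SE), 1.53-fold (limma adjusted p = 0.0163), and 20 of 24 VPA livers exceeded the saline mean within their genotype. Within genotypes it was 1.01 in KO (exact permutation p = 0.00606, 0.0424 adjusted over 7 comparisons), 0.35 in HZ (exact p = 0.368) and 0.50 in WT (exact p = 0.0631). The interaction did not pass (limma adjusted p = 0.803), so a difference in the VPA effect among genotypes was not shown.

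Markers of other cell types that express Cd36 moved with VPA as well. Of 12 Kupffer cell markers 6 rose with VPA and none fell, where 4.01% of all probesets were called higher and 4.6% lower. Their median difference was 0.35, against -0.02 over all probesets. Of 9 markers of liver endothelium 5 rose, with a median difference of 0.16. Within genotypes, 8 Kupffer and 8 endothelial markers were higher with VPA than with saline in HZ (medians 0.69 and 0.41). There 10.5% of all probesets were called in either direction. None passed in KO (0.12 and 0.02, with 0.0112% of all probesets called) or in WT (0.15 and 0.09, with 0.0703%). The Cd36 difference was 1.01 in KO, 0.35 in HZ and 0.50 in WT. The summed unlogged signal of the Kupffer markers ranged from 6177 to 9785 in KO VPA, from 6973 to 10625 in HZ VPA, from 3647 to 11721 in WT VPA, from 5014 to 9877 in KO saline, from 3949 to 7876 in HZ saline and from 3749 to 9259 in WT saline livers. That of the endothelial markers ranged from 8048 to 9882, from 7956 to 9703 and from 6454 to 10891 in KO, HZ and WT livers with VPA, and from 7970 to 10583, from 5342 to 7347 and from 6670 to 9489 in KO, HZ and WT livers with saline. The HZ saline livers had the lowest median Kupffer sum, 5143, against 7781 in WT saline and 6709 in KO saline livers. Their median endothelial sum was also lowest, 6574 against 8500 and 8471. With VPA the HZ medians were 8840 and 9102, near those of WT (8614 and 9299). The HZ difference thus goes with low saline livers, and whether VPA raised these markers was not tested apart from that. None of these markers stayed below 5 in every group. In whole liver, more cells of a type and more RNA per cell cannot be told apart, and the part of these cells in the Cd36 difference was not tested.

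Cpt1a encodes carnitine palmitoyltransferase of the outer mitochondrial membrane, the rate-limiting entry of long-chain fatty acids into the mitochondrion. In VPA livers it ran from 11.55 to 12.22 in KO (median 11.90), from 11.72 to 12.15 in HZ (median 11.89) and from 11.49 to 12.04 in WT (median 11.93). In saline livers it ran from 11.58 to 12.53 in KO (median 11.79), from 12.10 to 12.55 in HZ (median 12.21) and from 11.50 to 12.44 in WT (median 12.26). In HZ 7 of 8 VPA livers lay below every saline liver, and in WT all 8 lay below the saline mean. In KO 5 of 8 lay below the saline mean, and the KO saline livers had an SD of 0.40. The VPA difference over genotypes was -0.24 ± 0.070 (SE), 0.846-fold (limma adjusted p = 0.0253), and 21 of 24 VPA livers were under the saline mean within their genotype. It was -0.08 in KO (exact permutation p = 0.628), -0.34 in HZ (exact p = 0.000311, 0.00218 adjusted over 7 comparisons) and -0.31 in WT (exact p = 0.0295, 0.103 adjusted). The interaction did not pass (limma adjusted p = 0.805).

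**Figure D1:**
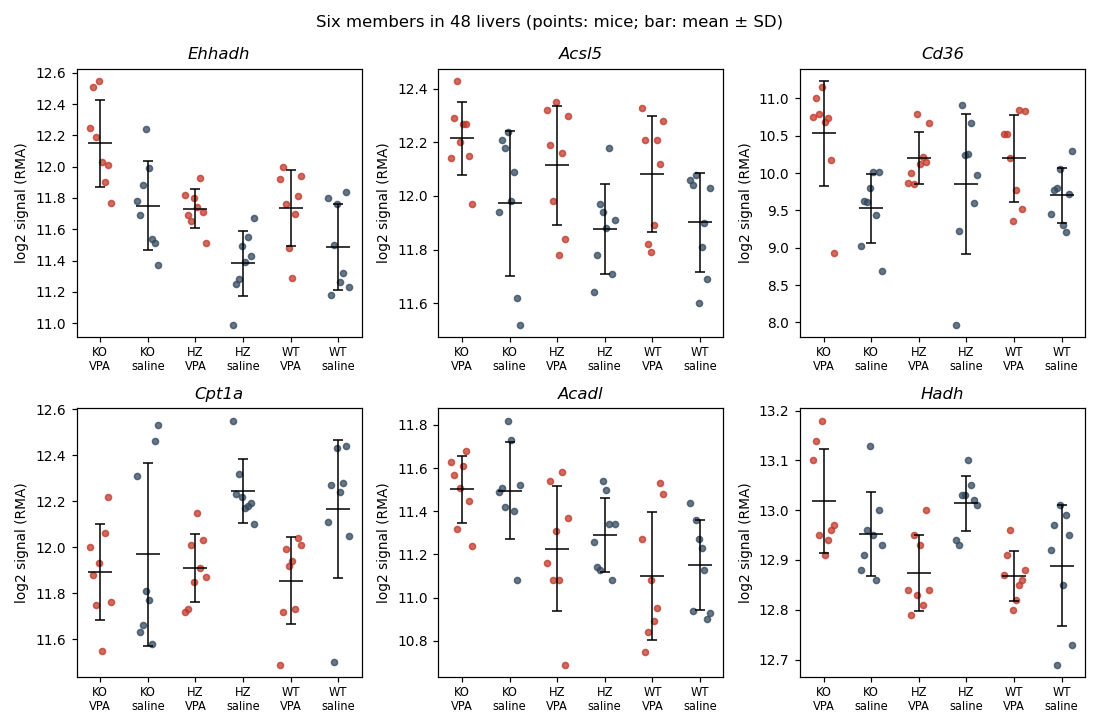
Log2 signals of Ehhadh, Acsl5, Cd36, Cpt1a, Acadl and Hadh (vertical axes) in the 6 groups of 8 livers (horizontal axes), with each mouse as a point, VPA in red, saline in dark blue, and the mean with its SD as a bar. Ehhadh was higher and Cpt1a lower in most VPA livers, and Acadl stood higher in KO livers of both treatments.

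The other steps of the pathway gave small differences with VPA. Of the carnitine shuttle, Slc25a20, the carnitine-acylcarnitine carrier (-0.03), and Cpt2, the palmitoyltransferase of the inner membrane (0.03), did not pass beside Cpt1a. None of the 5 acyl-CoA dehydrogenases, which catalyse the first dehydrogenation, passed. Their differences were 0.03 for Acadvl, -0.04 for Acadl, -0.004 for Acadm and 0.04 for Acads, which take very long, long, medium and short chains in that order, and -0.10 for Acad11. Etfdh, which passes the electrons of these enzymes to ubiquinone, differed by 0.11 (limma adjusted p = 0.0856), and Etfa and Etfb, the subunits of the electron transfer flavoprotein, by 0.07 and 0.01. Etfdh passed when each array was centred on its median.

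Hadha and Hadhb, the subunits of the mitochondrial trifunctional protein, differed with VPA by 0.03 and -0.01. The pair of Hadhb probesets gave the same value to 2 decimals. Hadha ran from 12.18 to 12.52 in KO VPA, from 12.24 to 12.41 in HZ VPA, from 12.20 to 12.41 in WT VPA, from 12.24 to 12.46 in KO saline, from 12.15 to 12.38 in HZ saline and from 12.22 to 12.53 in WT saline livers, so that all groups overlapped. Its 95% interval for VPA ran from -0.03 to 0.08. Of the other steps of the mitochondrial spiral, Echs1, the short-chain hydratase, differed by 0.05, Hadh, the short-chain hydroxyacyl dehydrogenase, by -0.03 and Acaa2 by -0.003.

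Beside Ehhadh, the other peroxisomal genes did not pass with VPA. Hsd17b4, the second peroxisomal bifunctional protein, differed by -0.01, and the thiolases Acaa1a and Acaa1b by -0.06 and 0.05. Acaa1b ran from 10.73 to 11.59 in KO VPA, from 10.73 to 11.34 in HZ VPA, from 10.48 to 11.40 in WT VPA, from 10.49 to 11.46 in KO saline, from 10.68 to 11.70 in HZ saline and from 10.48 to 11.29 in WT saline livers. The isomerases and reductases needed for unsaturated chains lay between -0.17 (Eci2, an enoyl-CoA isomerase, adjusted p = 0.135) and 0.03 (Eci1, its mitochondrial relative). Bdh1, which makes the ketone body beta-hydroxybutyrate, differed by -0.10, Fabp1 by -0.03, Creb3l3, a liver transcription factor that acts with PPAR-alpha, by -0.07, and Vnn1 by 0.08. Vnn1 had the widest interval of the members, from -0.29 to 0.45.

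**Figure D2:**
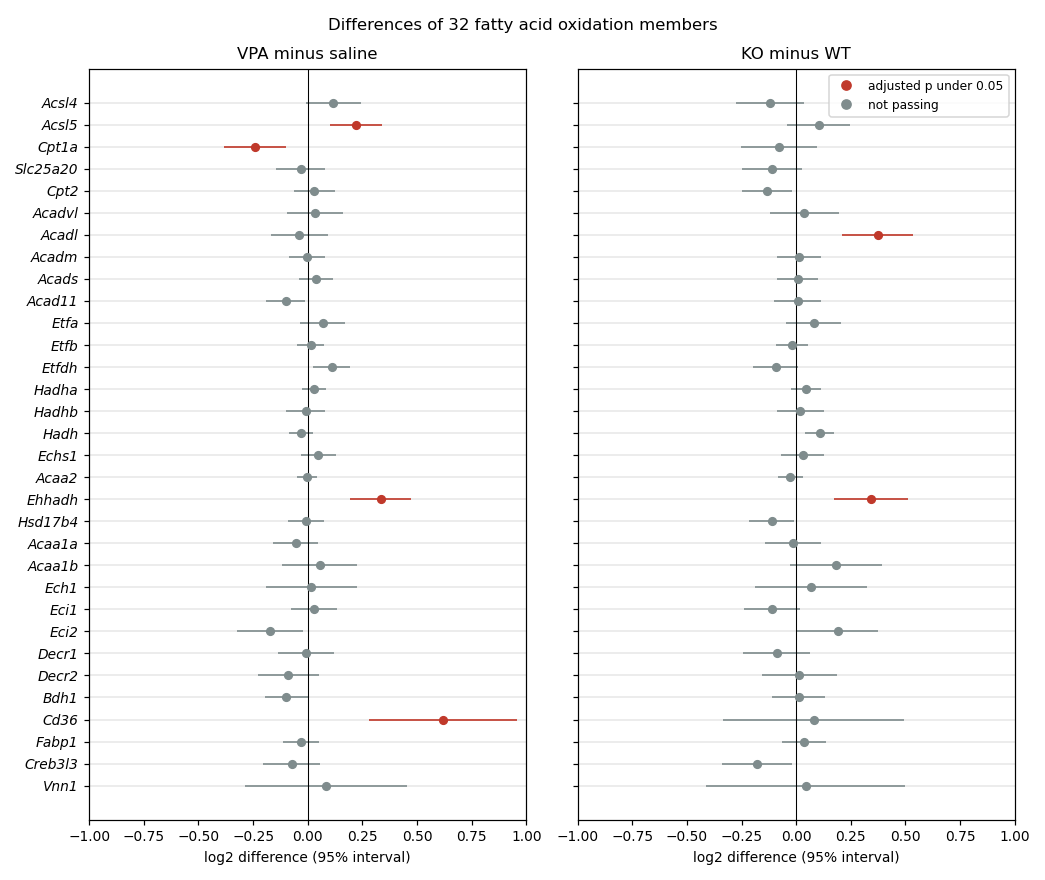
Log2 difference of each of the 32 genes (rows, ordered by role from activation to regulation) for VPA minus saline (left) and KO minus WT (right), with 95% intervals from the limma fit and genes past the adjusted threshold in red. With VPA, Ehhadh, Acsl5 and Cd36 lie above 0 and Cpt1a below it, in KO livers Acadl and Ehhadh lie above 0, and most of the other genes lie close to 0.

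Within single genotypes fewer members passed. In HZ mice 1 of 32 passed (3.12%, against 10.5% of all probesets, 5.76% in the lower direction), in WT mice none (0.0703% of all probesets) and in KO mice none (0.0112% of all). At an unadjusted limma p under 0.05 there were 5 members in KO (15.6%, against 7.16% of all probesets), 5 in HZ (15.6%, against 29.2%) and 4 in WT (12.5%, against 5.55%). The gene that passed in HZ was Hadh, which ran from 12.79 to 13.00 in HZ VPA livers (median 12.84) and from 12.93 to 13.10 in HZ saline livers (median 13.02), and 6 of the 8 VPA livers lay below every saline liver. The difference was -0.14 (limma adjusted p = 0.0473, exact permutation p = 0.00124, 0.00435 adjusted over 7 comparisons). This call was close to the threshold. It was lost on leaving out any of 18 of the 48 arrays, of which 5 were HZ VPA, 2 WT VPA, 3 KO saline, 7 HZ saline and 1 WT saline arrays, with adjusted p between 0.0263 and 0.0974 over all 48, and it was also lost when arrays were centred on their median (-0.10, adjusted p = 0.197). HZ saline livers also stood above WT saline livers in Hadh, by 0.13 (exact permutation p = 0.00995, 0.0232 adjusted over 7 comparisons), and 8 of 8 lay above the WT saline mean.

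The signs of the members differed among genotypes. With VPA, 28 of the 32 genes were above their saline mean in KO livers, 15 in HZ livers and 8 in WT livers, and the median difference over the genes was 0.11 in KO, -0.02 in HZ and -0.06 in WT. Over all probesets, 44.5% lay above 0 in KO, 43.4% in HZ and 47.5% in WT. Leaving out 1 array at a time gave 25 to 29 genes above 0 in KO, 12 to 16 in HZ and 6 to 12 in WT, where removal of WT saline replicate 7 gave 6. Centring each array on its median gave 28, 17 and 9 in the same order of genotypes, and the clock index as a covariate gave 26, 9 and 7, with a median of -0.11 in HZ. These counts describe genes of the same mice, which are not independent of each other, and none of the members passed the interaction test (0.0816% of all probesets, 29, did).

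Acadm, the medium-chain dehydrogenase, had the lowest unadjusted interaction p among the genes described in full (0.00666, limma adjusted p = 0.380). It ran from 12.16 to 12.54 in KO VPA livers (median 12.38) and from 11.95 to 12.27 in KO saline livers (median 12.21), with 6 of 8 VPA livers above every saline liver. It ran from 12.07 to 12.29 in HZ VPA (median 12.24) and from 11.97 to 12.56 in HZ saline livers (median 12.32), and from 12.08 to 12.36 in WT VPA (median 12.19) and from 12.04 to 12.55 in WT saline livers (median 12.27). The VPA difference was 0.19 in KO (exact permutation p = 0.00964, 0.0674 adjusted over 7 comparisons), -0.12 in HZ (exact p = 0.141) and -0.08 in WT (exact p = 0.265). The adjusted tests did not separate the genotypes.

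**Figure D3:**
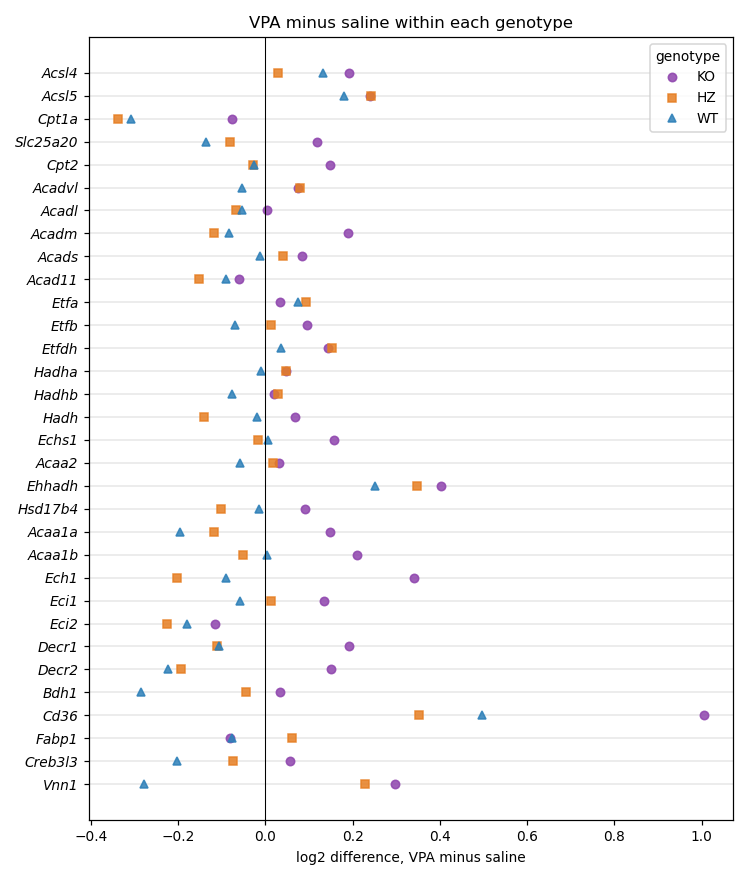
Log2 difference of VPA minus saline (horizontal axis) for each of the 32 genes (rows) within KO (purple circles), HZ (orange squares) and WT (blue triangles) mice. The KO points lie above 0 for 28 genes and the WT points for 8, and Cd36 in KO (1.01) lies farthest from 0.

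Comparing KO with WT over both treatments asked what differed in livers of mice that lack wolframin in the whole body. The study reported lower body weight and higher blood glucose in KO than in WT mice. Effects of these and of wolframin loss in the liver itself cannot be told apart in this design. Of the 32 genes 2 passed, Acadl and Ehhadh, both higher in KO livers. This was 6.25% of the members, against 2.94% of all probesets (1.37% higher and 1.57% lower). The 95% interval lay within ±0.3 for 24 genes and within ±0.5 for 30, and neither call was lost on leaving out any of the 48 arrays.

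Acadl encodes the long-chain acyl-CoA dehydrogenase of mitochondria. In KO livers it ran from 11.24 to 11.68 with VPA (median 11.54) and from 11.08 to 11.82 with saline (median 11.50). HZ livers had medians of 11.23 with VPA and 11.30 with saline. In WT livers it ran from 10.75 to 11.53 with VPA (median 11.01) and from 10.90 to 11.44 with saline (median 11.18). The KO and WT ranges overlapped in both treatments, and HZ livers, whose medians lay between, did not pass the test against WT (difference 0.13, limma adjusted p = 0.965). Of 16 KO livers 15 exceeded the WT mean within their treatment. The KO difference was 0.37 ± 0.080 (SE), 1.29-fold (limma adjusted p = 0.00338). It was 0.40 among VPA mice (exact permutation p = 0.00668) and 0.34 among saline mice (exact p = 0.00824), each 0.0288 after adjustment over 7 comparisons.

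Ehhadh differed between KO and WT by 0.34 ± 0.084 (SE), 1.27-fold (limma adjusted p = 0.01275), and 15 of 16 KO livers exceeded the WT mean within their treatment. The difference was 0.42 among VPA mice, where 6 of 8 KO livers lay above every WT liver (exact permutation p = 0.00575, 0.0201 adjusted over 7 comparisons). It was 0.27 among saline mice, where 3 of 8 did (exact p = 0.0785, 0.110 adjusted). KO VPA livers, which carried both the genotype and the drug, had the highest median of the 6 groups, while HZ VPA, WT VPA and KO saline livers had medians between 11.72 and 11.79, which differed by less than their spread. The KO and VPA differences of Ehhadh share all KO and WT livers and are not separate observations. Its VPA effect was not shown to differ between KO and WT (difference of the effects 0.15, 95% interval -0.19 to 0.49).

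No other member passed in KO. Hadh came closest, with a difference of 0.11 (limma adjusted p = 0.0693), and among VPA mice 5 of 8 KO livers lay above every WT liver (difference 0.15, exact permutation p = 0.000932, 0.00435 adjusted over 7 comparisons). Hadh was singled out from the same mice, and the adjustment over 7 comparisons does not cover that choice. Eci2 differed by 0.19 and Acaa1b by 0.18, Creb3l3 by -0.18, Cpt2 by -0.13 and Cpt1a by -0.08, with adjusted p of 0.355, 0.474, 0.280, 0.238 and 0.798. Hadha and Acadm differed by 0.04 and 0.01 and Cd36 by 0.08, the last with an interval of -0.33 to 0.49. Within VPA mice no member passed (0.405% of all probesets did) and 26 of 32 differences were above 0, and within saline mice none passed (0.79% of all) and 9 of 32 were above 0. Both counts share groups with the VPA counts within genotypes. At an unadjusted limma p under 0.05 there were 5 members among VPA mice (15.6%, against 7.91% of all probesets) and 10 among saline mice (31.2%, against 9.25%). None of the cell type marker lists had a member past the test between KO and WT.

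Between HZ and WT livers over both treatments none of the 32 genes passed, and 0.00281% of all probesets did (1 probeset). No member had an unadjusted limma p under 0.05 over both treatments, among 1919 probesets that did, and all 32 differences were under 0.2 in size. Within VPA mice none passed (0.00281% of all probesets) and none was under an unadjusted 0.05, and within saline mice none passed (0.304% of all) with 2 members under an unadjusted 0.05 (6.25%, against 10.7% of all probesets). The exact test of Hadh given above, in which HZ saline livers were higher than WT saline livers, concerned a gene singled out from the same mice. Its adjustment does not cover that choice, and limma called no member in this comparison.

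Genes of the same pathway outside the members showed scattered calls in both directions. Over all probesets, 8.61% were called with VPA, 2.94% in KO and 0.0816% for the interaction. Of 7 other measured genes of carnitine and CoA transfer, Acacb, which makes the malonyl-CoA that inhibits Cpt1a, was higher with VPA (0.39), and Crot, the peroxisomal carnitine octanoyltransferase, was lower in KO (-0.37). Of 10 other genes of peroxisomal entry and oxidation, Acox2, the oxidase of branched chains, was higher with VPA (0.16). In KO livers Abcd2, a transporter of very long chains, was higher (1.23), and Amacr, the racemase of branched chains (-0.29), and Scp2, which carries the thiolase SCPx (-0.40), were lower. Of 13 other mitochondrial genes, Acad8 of valine breakdown was higher with VPA (0.21), Acad10 was higher in KO (0.41) and Acsf2, an acyl-CoA synthetase, was lower in KO (-0.30). Hsd17b10, an isoleucine breakdown dehydrogenase, passed the interaction test (limma adjusted p = 0.0120). Of 4 measured ketone body genes, Slc16a1, a transporter of ketone bodies and lactate, was higher with VPA (0.46). In HZ mice alone, 2 of the 13 mitochondrial genes were lower with VPA, and 1 carnitine and 1 ketone body gene were higher (10.5% of all probesets called). No gene of these lists passed with VPA in WT (0.0703% of all) or KO (0.0112%). Among saline mice, 1 mitochondrial gene was higher and 1 ketone body gene lower in HZ than in WT (0.304% of all). There 2 peroxisomal genes were lower in KO than in WT (0.79%).

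Among 15 other measured targets of PPAR-alpha, 1 was higher and 3 were lower with VPA, and 2 were higher and none lower in KO. Of all probesets, 4.01% were higher and 4.6% lower with VPA, and 1.37% higher and 1.57% lower in KO. Within genotypes, 2 were higher and 2 lower with VPA in HZ (10.5% of all probesets called). None passed in KO (0.0112% of all) or WT (0.0703%). Pdk4, which restrains pyruvate oxidation, was higher with VPA (1.13). The acyl-CoA thioesterase Acot3 (-0.73), the lipase inhibitor Angptl4 (-0.54) and the lipid droplet protein Cidec (-0.22) were lower with VPA. Acot3 (1.83) and the fatty acid hydroxylase Cyp4a14 (0.99) were higher in KO livers. Among 11 regulators 1 was higher and 6 were lower with VPA, against 4.01% and 4.6% of all probesets. Within genotypes, 1 was higher and 5 were lower in HZ, 1 was higher and none lower in WT, and none passed in KO. Ppard, a nuclear receptor related to PPAR-alpha, was higher (0.65) as a mean over the 3 genotypes. The study that reported these mice found Ppard raised by VPA in WT but not in KO livers. In the fit used here none of the 11 regulators passed the interaction test (0.0816% of all probesets did). Ppara, which encodes PPAR-alpha itself (-0.36), its partner Rxra (-0.19), the coactivators Ppargc1b (-0.34) and Lpin1 (-0.53), the bile acid receptor Nr1h4 (-0.25) and the estrogen-related receptor Esrra (-0.13) were lower. In KO livers Ppargc1a, a coactivator of PPAR-alpha and of mitochondrial genes (0.64), and Esrra (0.15) were higher. Within VPA mice 1 regulator was lower in KO than in WT livers (0.405% of all probesets called), and within saline mice 1 was higher (0.79% called). The median difference over the regulators was -0.13 with VPA and 0.06 in KO, against -0.02 and 0.01 over all probesets. Between HZ and WT livers over both treatments none of the genes of these lists passed.

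Across the 48 livers, after the mean of each group was taken away, some members rose and fell together from mouse to mouse. Of 496 pairs, 371 had a correlation above 0, the median was 0.24, and 187 passed a permutation test after Benjamini-Hochberg adjustment over all pairs. The same counts were not taken over pairs of other probesets, so they do not show whether covariation is particular to these genes. The highest values were between Cpt1a and Eci2 (Pearson r = 0.849, Spearman rho = 0.798), Acadvl and Etfa (r = 0.841, rho = 0.844), and Cpt1a and Creb3l3 (r = 0.819, rho = 0.809), each with a permutation p of 1e-05, the smallest 100000 resamples can give, and 0.00015 after adjustment. Without the 2 mice farthest from the median of the first gene, r was 0.807, 0.826 and 0.812. Within single groups of 8 mice Acadvl and Etfa ranged from 0.684 to 0.915 and Cpt1a and Creb3l3 from 0.590 to 0.930, but Cpt1a and Eci2 from -0.131 in HZ saline to 0.952. Among 35555 other probesets, Eci2 and Creb3l3 ranked 2 and 3 in correlation with Cpt1a, and 3 probesets reached 0.8. Etfa ranked 234 in correlation with Acadvl, where 477 probesets reached 0.8, so that value is not particular to the pair.

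The lowest correlation was between Creb3l3 and Acsl5 (r = -0.775, rho = -0.797, permutation p = 1e-05, 0.00015 adjusted), and r was -0.744 without the 2 mice farthest from the median of Acsl5. It was below 0 in each of the 6 groups, from -0.925 to -0.566. Over the other members, Cpt1a had a median correlation of 0.08 and Ehhadh of 0.04, against 0.44 for Hadhb, 0.38 for Decr1, the mitochondrial dienoyl-CoA reductase, and 0.37 for Hsd17b4. The gene most like Ehhadh among the members was Acaa1b (r = 0.641), which ranked 2 among all other probesets.

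**Figure D4:**
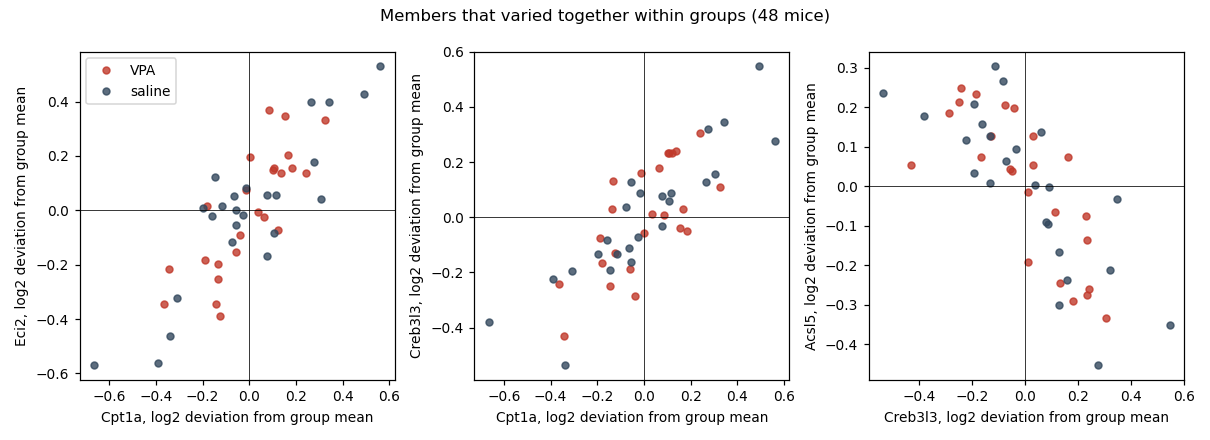
Deviation of each of 48 mice from its group mean in log2 signal, for Eci2 against Cpt1a, Creb3l3 against Cpt1a and Acsl5 against Creb3l3, with VPA mice in red and saline mice in dark blue. Eci2 and Creb3l3 rose with Cpt1a (r = 0.849 and 0.819), and Acsl5 fell as Creb3l3 rose (r = -0.775).

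Clock genes differed widely among the groups, and the hour of death of each mouse is not given in the sources used here. An index of 12 clock genes, high when Arntl is high and Dbp and the Per genes are low, averaged -0.13 ± 0.48 in KO VPA, 0.95 ± 0.27 in HZ VPA, 1.12 ± 0.25 in WT VPA, -0.64 ± 0.43 in KO saline, -1.10 ± 0.26 in HZ saline and -0.20 ± 0.49 in WT saline livers (SD, n = 8 each). With the index in the fit, no member and no probeset passed for VPA. The VPA difference of Ehhadh was then 0.12, of Acsl5 0.05, of Cd36 0.50 and of Cpt1a 0.06, with limma adjusted p between 0.798 and 0.940. For KO, Ehhadh still passed, Acadl had a difference of 0.42 (adjusted p = 0.0908), and 131 probesets passed. Within groups, where the index varied among mice of 1 treatment, no member followed it past the test over all probesets (0.436% of which did). Etfdh came closest (r = 0.445, rho = 0.469, permutation p = 0.00355 and 0.00194, r = 0.484 without the 2 mice of the most extreme index, limma adjusted p of the slope = 0.234). For Cpt1a r was -0.348 and rho -0.308 (permutation p = 0.0419 and 0.0582). The genes listed for the index include Nfil3 and Nr1d2, for which the study reported a VPA response that depended on genotype. The shift of the index with VPA and the effect of VPA itself cannot be told apart in this design.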

How the data were processed

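Liver RNA was hybridised to Affymetrix Mouse Gene 1.0 ST arrays. The authors processed the arrays with RMA in Expression Console 1.1.2800.28061 (background correction, quantile normalization and summary of probes), so the deposited values are log2 signals. Quantile normalization can mask shifts shared by most genes. Genotype and treatment were taken from the sample labels, and probesets were named from GEO's platform annotation (21789 with 1 symbol, 1621 with several, 12146 with none). A mean per group was estimated over all 48 arrays (42 residual degrees of freedom) by limma 3.58.1 under R 4.3.3. Adjustment was by Benjamini-Hochberg across 35556 probesets, with a threshold of 0.05. Where a gene had several probesets, that with the highest mean stood for it.

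Pairs of groups were compared for single genes by two-sided exact permutation tests over 12870 splits of 16 mice (smallest p 0.000155). Their p were adjusted over the 7 comparisons of a gene. This adjustment does not cover the choice of these genes, which were singled out from the same data. Correlations used 100000 permutations. The clock index is the mean of z-scores of 12 of 13 listed clock genes. Fits were tested on simulated data. Python 3.11.15 with matplotlib 3.10.9 drew the figures. The genes and lists were chosen with earlier results of these data known. Genes described in full were those past the threshold in a main comparison, with Cpt1a, Acadm, Hadha, Acaa1b and Cd36 always included. Lists of other cell types without a called member between VPA and saline were skeletal muscle, lymphocyte and exocrine pancreas. Stellate cell markers had 3 of 8 higher, hepatocyte markers had 2 of 9 lower (Pck1 and Tat), and adipocyte markers had 1 of 7 lower (Cidea). Of all probesets, 4.01% were higher and 4.6% lower. Alternatives were array weights, trended and robust or no moderation, median centring, fewer probesets, a block for the replicate number, fits on the groups compared alone, a threshold of 0.01, the clock index as a covariate and leaving out each array. The p-values treat the mice as independent and measure the spread between them, and the number and spread of the mice limit the precision. Whether mice shared a litter or cage is not given in the sources used here.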

Additional observations from a re-analysis of the deposited data

Results flagged for a closer look

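For each of the 32 genes, each of the 6 groups of 8 livers was examined for a highest or lowest mouse standing far from the rest, by its gap to the next mouse as a share of the range of the group. Of 192 groups 12 had such a mouse, where chance gives about 1 in 20. Among VPA livers, these were Cd36 in KO replicate 8 (8.93, the next lowest 10.18), Etfdh in KO replicate 1 (12.09, the next highest 11.84) and Acad11 in WT replicate 3 (12.23, the next highest 12.04).

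Among saline livers, HZ replicate 8 was lowest in Slc25a20 (10.10, next 10.36) and in Acad11 (11.76, next 12.04). HZ replicate 4 was highest in Acaa1a (9.99, next 9.66), and HZ replicate 7 was lowest in Fabp1 (13.44, next 13.64). WT replicate 3 was lowest in Cpt1a (11.50, next 12.05), WT replicate 2 was highest in Etfb (12.83, next 12.66) and WT replicate 4 was highest in Hadha (12.53, next 12.35). WT replicate 7 was lowest in Hsd17b4 (11.61, next 11.71) and in Decr1 (10.74, next 11.00). Cd36 and Cpt1a kept their VPA calls without each of these mice.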

How the results depend on the processing

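The 4 VPA calls and 2 KO calls among the members held with each of the 48 arrays left out, with values of 0.31 to 0.36 for Ehhadh, 0.20 to 0.24 for Acsl5, 0.53 to 0.69 for Cd36 and -0.27 to -0.21 for Cpt1a with VPA, and 0.35 to 0.40 for Acadl and 0.31 to 0.37 for Ehhadh in KO. With 1 array left out, members called numbered 4 to 5 for VPA, 0 to 3 for VPA in HZ, 2 to 3 for KO and 0 to 1 for KO within VPA mice (Acadl without WT VPA replicate 7), and probesets called numbered 2334 to 4663 for VPA (the highest without KO saline replicate 2), 747 to 1261 for KO, 1 to 5 for HZ and 15 to 52 for the interaction (without HZ saline replicate 4 and without KO saline replicate 8). Acadm, near 0, changed sign in some of these fits, from -0.0201 to 0.00866 for VPA and from -0.00462 to 0.0316 for KO. A threshold of 0.01 left 1 member for VPA (Ehhadh), 1 for KO (Acadl) and 0 for VPA in HZ, and 1056, 478 and 3 probesets for VPA, KO and the interaction. For VPA in HZ, array weights gave 4 members, trended and robust moderation 2, single-symbol probesets alone 3, exclusion of probesets under a mean of 5 in all groups 2, 1 probeset per gene 3 and a fit on the groups compared alone 4. For HZ against WT, single-symbol probesets and 1 probeset per gene each gave 4 called probesets, the exclusion of dim probesets 2, and the groups compared alone 6 (689 for KO against WT). The interaction called 133 probesets with array weights and 54 with single-symbol probesets or 1 probeset per gene. With the clock index as a covariate, 0 members passed for VPA and for VPA in HZ and 1 for KO, with 0, 131 and 0 probesets for VPA, KO and the interaction, and signs turned for Cpt1a (0.0558), Acadm (0.125), Hadha (-0.0354) and Acaa1b (-0.277) with VPA and for Acadm (-0.0705) in KO. Median centring turned Acadm with VPA to 0.0219. The causes were not tested.

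The sources used here do not say that replicate numbers pair the mice. After group means were taken away, same-numbered arrays had a mean correlation of 0.055, against -0.0078 for differently numbered arrays. Of 120 same-numbered pairs 53 correlated over 0.1, and 11 of 48 arrays were closest to their own number. Whether a shared step lies behind the numbers was not tested. With the replicate number as a block, 2 members passed for VPA in HZ (Ehhadh and Hadh), 2 probesets for HZ against WT and 54 for the interaction, and no other count moved by over 1.5 times. Fits on only the groups compared were not run for VPA over the genotypes and the interaction, which use all arrays.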
